A study of Mus musculus with 24 samples.

Results

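Cytochrome P450 genes were described in mouse kidney RNA by abundance and by the strain from which each gene was expressed. Members were chosen by symbol, as Cyp followed by a number, a letter and a number, with pseudogenes and the opposite-strand transcript Cyp4x1os left out, which gave 98 of the 37315 genes of the table. Of these, 21 had no allelic count in any kidney library, 32 had counts but fewer than 50 pooled over the 6 libraries of every experiment, and 45 reached 50 pooled counts in at least 1 experiment. All 45 are placed on autosomes. The kidney RNA came from the left kidney of an adult female 129S1/SvImJ x CAST/EiJ F1 mouse with the control label for drug treatment, and all 18 kidney libraries were made from aliquots of it. Experiment 1 used the NEBNext kit with 100 ng of RNA, Experiment 2 the SMARTseq kit with 10 ng and Experiment 3 the SMARTseq kit with 100 pg, each with 6 libraries. Abl.1 and Abl.2 are clonal B cell lines of the same F1 background and female sex, immortalised with Abelson virus and also carrying the control label, with 2 SMARTseq libraries each from 10 ng. Because the libraries are technical replicates of 1 kidney and of 1 culture per clone, p-values measure only the spread between libraries, and nothing here speaks to spread between mice.

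P450 enzymes are heme proteins that insert an oxygen atom into their substrate, with electrons passed on by a reductase. The Cyp2 family is known for the metabolism of drugs, steroids and arachidonic acid, the Cyp4 family for hydroxylation at the end of fatty acid chains, and single enzymes outside them for making and removing hormones. In kidney, the proximal tubule is the known site of conversion of vitamin D to its active form by Cyp27b1, and Cyp24a1 breaks the hormone down.

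Allelic imbalance (AI) was the maternal column's count as a share of both columns' counts for a gene, so that an AI above 0.5 means more counts from the 129S1 allele and an AI below 0.5 more from the Cast/Ei allele. The assignment of columns to strains follows the study's methods. No reciprocal cross was sampled, so strain and parent of origin cannot be told apart. Bias towards a strain therefore means only a higher count in its column. H2-Ea-ps, an MHC class II gene not transcribed in mice of the b haplotype, which 129S1 carries, was looked at as a check after its values were seen, and it had 0 maternal and 427, 924 and 703 paternal counts in Experiments 1, 2 and 3. A kidney library held 6138693 to 6702351 allelic counts, and a first-run Abl library 19213150 to 22241719. P450 genes took 0.551% to 0.614% of the counts of a kidney library and 0.0293% to 0.0441% of the counts of an Abl library. Replicate 1 of Experiment 1 stood apart, in that the 5 library pairs holding it had a quality correction coefficient (QCC, the excess of AI spread between libraries over sampling noise) of 2.04 to 2.13 and the other 10 pairs of 1.66 to 1.80. Without it 24 in place of 25 P450 genes were called as biased in Experiment 1 (Cyp2s1 lost its call), and the counts of genes whose AI differed between experiments were the same. Tubule markers (Umod, Slc12a1, Slc12a3, Aqp2, Lrp2, Slc34a1 and Slc22a6) were all detected in kidney and summed to 11879 to 21109 CPM (allelic counts scaled to a library total of 1000000). B lineage markers summed to 9.85 to 22.8 CPM in kidney and to 6376 to 8304 CPM in the clones. The adrenal cortex list held Star, Hsd3b1, Nr5a1 and the P450 members Cyp11a1, Cyp11b1, Cyp11b2 and Cyp21a1. Of these 7 genes, 4, 4 and 5 were at 0 in Experiments 1, 2 and 3, and the list summed to 0.302 to 12.2 CPM. Apart from Nr5a1, the genes at 0 were P450 members, so this list is not independent of the P450 counts. The liver list (Alb, Apoa1, Ttr and Serpina1a) summed to 57.6 to 125.7 CPM, and the part of other cell types in the results was not tested.

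Several P450 genes lie in tandem arrays of near-identical copies, and a read can be placed on 1 copy only where it covers a base that differs. The pairs shown here hold Cyp2a4 and Cyp4a32, whose AI was one-sided, each beside the copy that shares most 75-base windows with it, as 60 aligned bases of coding sequence from GENCODE M21 on GRCm38, 5′ to 3′, with capitals at the bases that differ within a pair. Coding bases 596 to 655 are shown for the first pair and 200 to 259 for the second.
Cyp2a4: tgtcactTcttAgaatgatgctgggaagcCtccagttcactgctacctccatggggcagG
Cyp2a5: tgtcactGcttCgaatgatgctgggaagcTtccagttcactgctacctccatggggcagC
Cyp4a10: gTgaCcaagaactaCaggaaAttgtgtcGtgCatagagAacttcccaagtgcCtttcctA
Cyp4a32: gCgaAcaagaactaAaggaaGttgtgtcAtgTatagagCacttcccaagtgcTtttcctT
The coding sequences of Cyp2a4 and Cyp2a5 differed at 23 bases (98.5% identity) and those of Cyp4a10 and Cyp4a32 at 43 bases (97.2%). Of the 75-base windows of the transcripts, 22.1% of those of Cyp2a4, 22.3% of Cyp2a5, 18.4% of Cyp4a10, 12.8% of Cyp4a31 and 28.0% of Cyp4a32 also occurred in another gene. No window of Cyp24a1, Cyp2j11 or Cyp4a14 was shared. Counts of the copies with shared windows are uncertain, since reads that align to more than 1 place were not kept. Windows were compared as exact matches among reference transcripts, without the strain SNPs and without allowing mismatches. The shares of windows therefore do not set a limit to this uncertainty.

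Most of the P450 allelic counts came from a few genes of the Cyp2d and Cyp4a subfamilies. Cyp2r1 was grouped with the vitamin D genes. The other 47 Cyp2 genes held 56.7%, 57.4% and 56.9% of all P450 counts in Experiments 1, 2 and 3. The 20 Cyp4 genes held 33.0%, 34.98% and 35.7%. Within these families the 8 Cyp2d genes held 31.3% to 38.2% and the 8 Cyp4a genes 28.2% to 30.6%. The 4 vitamin D genes held 4.16% to 6.04%, the 11 genes of steroid, sterol and bile acid metabolism 1.71% to 2.07%, and the 3 genes of retinoic acid breakdown (Cyp26a1, Cyp26b1 and Cyp26c1) at most 0.0135%. These shares are of allelic counts, which grow with the length of a transcript and its number of strain SNPs, and so do not rank families by RNA level. Levels of single genes are compared as CPM per kb of exon, which corrects for length but not for SNP density.

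Cyp2d26, a member of the Cyp2d drug-metabolising subfamily, was the highest per length, with a mean level of 578, 450 and 503 CPM per kb in Experiments 1, 2 and 3. Cyp4a10, a fatty acid hydroxylase and a known target of the receptor Ppara, followed in Experiments 2 and 3 with 401 and 433 CPM per kb, and stood at 241 CPM per kb in Experiment 1 beside Cyp4a31 with 245. Cyp2d12 was at 135, 260 and 296 CPM per kb. Levels from 77.5 to 170 CPM per kb were found for Cyp2j11, Cyp2j5, Cyp2e1, Cyp2a5 and Cyp4a14. Cyp2j5 is known as an arachidonic acid epoxygenase, and Cyp2e1 as the ethanol-inducible P450.

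**Figure D1:**
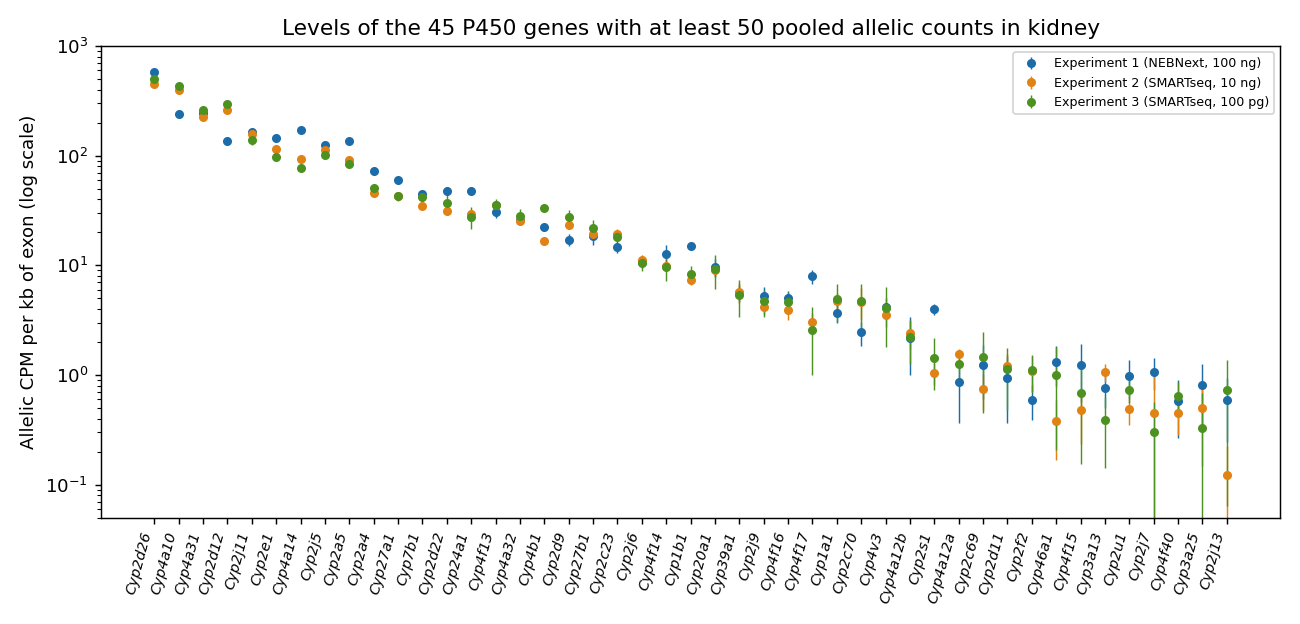
Mean level of the 45 P450 genes with at least 50 pooled counts, in allelic CPM per kb of exon on a log axis, with a point per experiment and bars of 1 SD over its 6 libraries (bars that reach 0 leave the axis). Cyp2d26 stands at the left with 578, 450 and 503 CPM per kb, and the rarest genes lie near or below 1.

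The genes for adrenal and gonadal steroid synthesis and the bile acid enzyme gene Cyp7a1 had few or no counts. Cyp11b1, Cyp11b2, Cyp19a1 and Cyp7a1 had 0 counts in all 18 kidney libraries, Cyp11a1 had 1 count in Experiment 2 alone, and Cyp21a1 had 3 counts in Experiment 1 alone. Cyp17a1, the steroid 17-hydroxylase and lyase, had 17, 14 and 16 pooled counts. A count of 0 sets only an upper limit of 3 counts per library or pool and does not show absence, the more so where a transcript has few strain SNPs.

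A gene was tested for an AI other than 0.5 where it had at least 50 pooled counts in an experiment, with the proportional test on counts divided by the square of the QCC and Bonferroni correction over all genes tested. A larger share of P450 genes than of all genes was called. In Experiment 1, 25 of 44 P450 genes were called (13 higher in the maternal and 12 in the paternal column), where 16.6% of all 12315 genes tested were called (8.7% maternal, 7.88% paternal). In Experiment 2, 26 of 38 were called (14 and 12) against 22.7% of all genes (12.1% and 10.6%), and in Experiment 3, 20 of 42 (10 and 10) against 12% (6.24% and 5.78%). The P450 genes were also counted more deeply. Their median was 1190, 1572.5 and 1531 pooled counts in Experiments 1, 2 and 3, against 824, 646 and 669 for all genes tested. The part of depth in the excess of calls was not tested. The size of the imbalance does not use the call. An AI at least 0.1 away from 0.5 was found for 30 of 44 P450 genes (68.2%), 26 of 38 (68.4%) and 28 of 42 (66.7%) in Experiments 1, 2 and 3, against 26.7%, 28.6% and 34.2% of all genes tested. The median distance of AI from 0.5 was 0.160, 0.148 and 0.152 for P450 genes and 0.0517, 0.0549 and 0.0632 for all genes.

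The P450 genes had no common direction, while each gene kept its own in every experiment that called it. In all 3 experiments 9 genes were called towards 129S1 (Cyp27a1, Cyp2a4, Cyp2a5, Cyp2d22, Cyp2d26, Cyp2j5, Cyp2j6, Cyp4a14 and Cyp4b1) and 10 towards Cast/Ei (Cyp24a1, Cyp2c23, Cyp2c70, Cyp2d12, Cyp2e1, Cyp4a10, Cyp4a31, Cyp4a32, Cyp4f13 and Cyp4f17). A further 9 were called in 1 or 2 experiments, none in opposite directions, and 17 of the 45 in none. For the 36 genes with 50 counts in all experiments, the pooled AI of a gene differed between experiments by a median of 0.0432. It differed by less than 0.1 for 29 of them. The median over the 11298 genes of the whole table with 50 counts in all experiments was 0.0637. P450 genes were counted more deeply, and the part of depth in this smaller median was not tested.

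**Figure D2:**
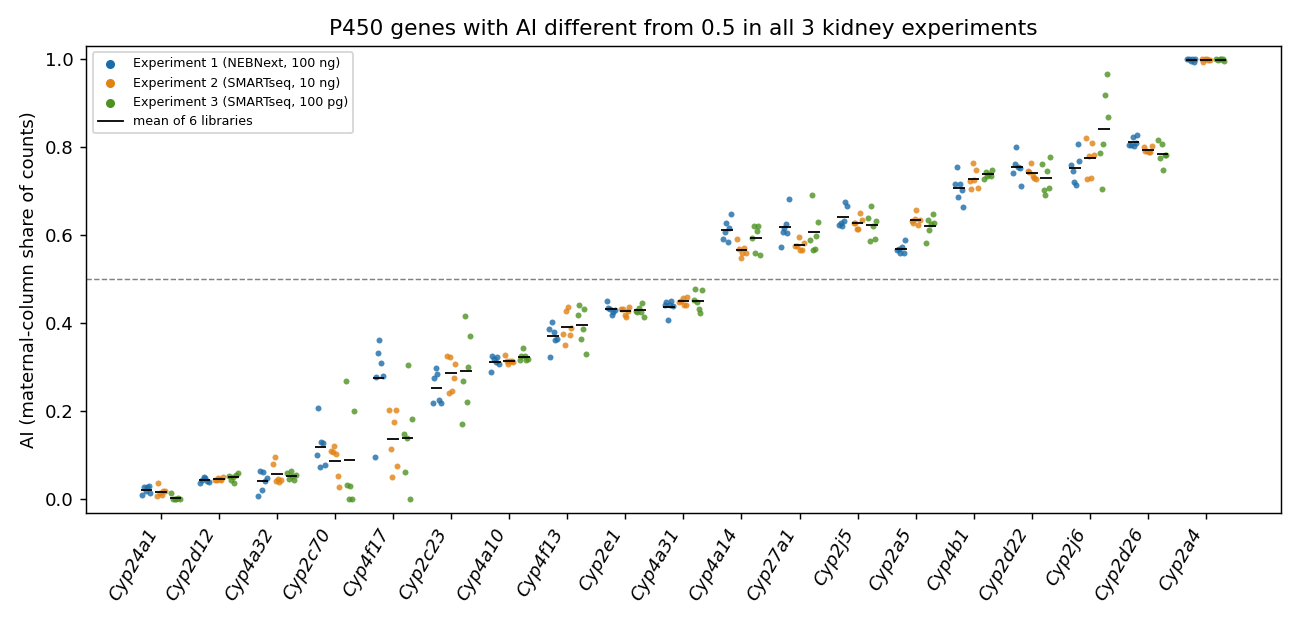
AI of the 19 P450 genes called in the same direction in all 3 kidney experiments, with a point per library, bars at the mean of 6 libraries and a dashed line at 0.5. Cyp24a1, Cyp2d12 and Cyp4a32 lie below 0.1 in every library and Cyp2a4 above 0.99, while the libraries of Cyp2c70, Cyp4f17 and Cyp2j6 spread widely in Experiment 3.

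The Cyp2d array at chr15:82370527-82794294 (coordinates as in the table, GRCm38) holds 8 members, of which Cyp2d22, Cyp2d11, Cyp2d9, Cyp2d12 and Cyp2d26 passed 50 counts, and its 2 most abundant genes were biased in opposite directions. Cyp2d12 (ENSMUSG00000096852, chr15:82555072-82560403) had an AI from 0.0361 to 0.0510 (median 0.0424) in the libraries of Experiment 1, from 0.0429 to 0.0501 (median 0.0455) in Experiment 2 and from 0.0371 to 0.0596 (median 0.0527) in Experiment 3, so at most 0.0596 of its counts were of the 129S1 allele in any library. Its pooled AI was 0.0429 (95% interval 0.0380 to 0.0483), 0.0460 (0.0430 to 0.0491) and 0.0501 (0.0452 to 0.0555). Cyp2d26 (ENSMUSG00000022445, chr15:82790101-82794294) had an AI from 0.802 to 0.828 (median 0.807) in Experiment 1, from 0.788 to 0.802 (median 0.792) in Experiment 2 and from 0.748 to 0.817 (median 0.783) in Experiment 3. Every library of Cyp2d26 thus lay far above every library of Cyp2d12. Cyp2d22 was biased towards 129S1 like Cyp2d26, with a pooled AI of 0.753, 0.740 and 0.728. Cyp2d11 had only 57 to 73 pooled counts and was not called. Of the 75-base windows, 3.34% of Cyp2d26, 2.37% of Cyp2d12 and 1.51% of Cyp2d22 were shared with other genes.

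In the Cyp4a and Cyp4b1 array at chr4:115106323-115647723, 7 of 10 members passed 50 counts, and neighbours again differed in direction. Cyp4a10 (ENSMUSG00000066072, chr4:115518264-115533649) had an AI from 0.288 to 0.325 (median 0.315) in Experiment 1, from 0.308 to 0.327 (median 0.314) in Experiment 2 and from 0.317 to 0.343 (median 0.322) in Experiment 3. Cyp4a31 (ENSMUSG00000028712, chr4:115563649-115579015) was nearer to balance, from 0.406 to 0.451 (median 0.441), 0.440 to 0.461 (median 0.449) and 0.423 to 0.477 (median 0.451), and still called in each experiment (Bonferroni-adjusted p = 6.22e-21, 1.02e-19 and 3.16e-05 in the QCC-corrected proportional test). Cyp4a14 (ENSMUSG00000028715, chr4:115486200-115496142), a fatty acid hydroxylase like the others, went the other way, from 0.585 to 0.648 (median 0.612), 0.549 to 0.591 (median 0.565) and 0.555 to 0.621 (median 0.601). These 3 genes carried most Cyp4 counts, and no library of Cyp4a14 fell below 0.5 or of the other pair rose above it.
Cyp4a32 (ENSMUSG00000063929, chr4:115600969-115621602), whose coding stretch is printed above beside that of Cyp4a10, was almost only of the Cast/Ei allele, with an AI from 0.00772 to 0.0648 (median 0.0452), 0.0391 to 0.0956 (median 0.0452) and 0.0444 to 0.0648 (median 0.0533). Cyp4b1, known for activating lung and kidney toxins, was biased towards 129S1 with a pooled AI of 0.706, 0.729 and 0.738. Cyp4a12a and Cyp4a12b, known as male-biased kidney arachidonic acid hydroxylases, were rare in this female kidney, with mean levels of 0.855 to 1.55 and 2.17 to 2.40 CPM per kb, and 40.8% and 41.3% of their windows were shared. Cyp4a12b was called towards Cast/Ei in Experiments 1 and 2, with a pooled AI of 0.173 and 0.268 (Bonferroni-adjusted p = 0.00792 and 0.0327 in the QCC-corrected proportional test), and Cyp4a12a in none.

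In the Cyp4f array at chr17:32468462-32947402, 6 of 8 members passed 50 counts. Cyp4f13 was called towards Cast/Ei in all experiments, with a pooled AI of 0.371, 0.393 and 0.395, and its neighbour Cyp4f14 towards 129S1 in Experiments 1 and 2, with 0.669 and 0.651, and 0.678 without a call in Experiment 3. Cyp4f14 is known to act on leukotriene B4. Cyp4f40 had 0 maternal counts of 56 in Experiment 1, which allows a share of up to 5.36% by counting error (QCC-corrected 95% interval of AI up to 0.190). It had 0 of 43 in Experiment 2, too few to be tested, and 1 of 63 in Experiment 3. At this depth it was not called in Experiment 1 or 3.

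The Cyp2a genes on chromosome 7 included the most one-sided of the called P450 genes towards 129S1. Cyp2a4 (ENSMUSG00000074254, chr7:26307169-26315088), a steroid hydroxylase, had all but 8 of 4805, 5 of 3047 and 4 of 3497 pooled counts in the maternal column, with an AI from 0.995 to 1, 0.993 to 1 and 0.995 to 1 over the libraries. Its closest copy Cyp2a5 (ENSMUSG00000005547, chr7:26835305-26843548), a coumarin hydroxylase, was expressed from both alleles, with an AI from 0.559 to 0.589 (median 0.568), 0.622 to 0.657 (median 0.633) and 0.583 to 0.647 (median 0.626). Both were called towards 129S1 in every experiment, and no library of Cyp2a5 came near the values of Cyp2a4.

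Of the Cyp2j array at chr4:96027534-96664154, 6 of 8 members passed 50 counts, and no call towards Cast/Ei was made in Experiments 2 or 3. Cyp2j5 (pooled AI 0.640, 0.628 and 0.623) and Cyp2j6 (0.750, 0.774 and 0.839) were called towards 129S1 in all experiments. Cyp2j11 (ENSMUSG00000066097, chr4:96294508-96348662), the third of the most counted Cyp2 genes, had an AI from 0.427 to 0.459 (median 0.443) in Experiment 1, where it was called towards Cast/Ei, and from 0.479 to 0.509 (median 0.496) and 0.483 to 0.523 (median 0.504) in Experiments 2 and 3, where it was not.
Among the other Cyp2 genes, Cyp2c23, the main arachidonic acid epoxygenase of mouse kidney, was biased towards Cast/Ei with a pooled AI of 0.256, 0.284 and 0.297, as was Cyp2c70, known for making muricholic bile acids in liver, with 0.114, 0.0819 and 0.106. Cyp2c70 had only 185 to 368 pooled counts, and its AI ran from 0 to 0.269 over the libraries of Experiment 3. Cyp2e1 was close to balance, with 0.432, 0.427 and 0.429, and called towards Cast/Ei in each experiment. Cyp2f2 had a pooled AI of 0.957 on 46 counts, 0.824 on 85 and 0.899 on 89. It was not tested in Experiment 1 and not called in Experiments 2 and 3.

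The vitamin D genes differed in strain bias. Cyp24a1 (ENSMUSG00000038567, chr2:170482708-170497145), which inactivates the hormone, was expressed almost only from the Cast/Ei allele, with an AI from 0.00932 to 0.0306 (median 0.0233) in Experiment 1, from 0.00749 to 0.0362 (median 0.0159) in Experiment 2 and from 0 to 0.0155 (median 0.000572) in Experiment 3. Of its pooled counts 138 of 6406, 69 of 4012 and 11 of 3920 were in the maternal column. Cyp27b1 (ENSMUSG00000006724, chr10:127048250-127053006), which makes the active hormone, had an AI from 0.436 to 0.536 (median 0.506), 0.362 to 0.484 (median 0.418) and 0.302 to 0.552 (median 0.433), and was not called in any experiment (Bonferroni-adjusted p = 1, 0.116 and 1 in the QCC-corrected proportional test). All 6 libraries of Experiment 2 lay below 0.5, while those of the other experiments fell on both sides.
Cyp27a1 (ENSMUSG00000026170, chr1:74713574-74737892), the mitochondrial sterol 27-hydroxylase, which also acts on vitamin D, was biased towards 129S1, with an AI from 0.574 to 0.682 (median 0.611), 0.566 to 0.597 (median 0.575) and 0.567 to 0.691 (median 0.594). Cyp2r1, the main 25-hydroxylase of the liver, had 5, 6 and 15 pooled counts in kidney and was not tested. Per length, Cyp27a1 was at 60.02, 42.9 and 42.4 CPM per kb, Cyp24a1 at 47.2, 29.4 and 27.8, and Cyp27b1 at 18.4, 19.2 and 21.6.

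Of the 11 genes of steroid, sterol and bile acid metabolism, 3 passed 50 counts. Cyp7b1 (ENSMUSG00000039519, chr3:18071950-18243338), an oxysterol hydroxylase, was the most abundant, at 44.4, 35.01 and 42.3 CPM per kb, and was not called, with an AI from 0.450 to 0.572 (median 0.531), 0.435 to 0.529 (median 0.474) and 0.405 to 0.578 (median 0.531). Cyp39a1 (ENSMUSG00000023963, chr17:43667425-43751431), another oxysterol hydroxylase, was called towards 129S1 in Experiments 1 and 2, with an AI from 0.663 to 0.726 (median 0.688) and 0.541 to 0.827 (median 0.676), and in Experiment 3 ran from 0.609 to 0.932 (median 0.721) without a call (Bonferroni-adjusted p = 0.00177, 3.76e-07 and 0.107 in the QCC-corrected proportional test). Every kidney library of Cyp39a1 lay above 0.5. Cyp46a1, the cholesterol hydroxylase of neurons, had 164, 48 and 131 pooled counts. Its AI ran from 0.150 to 0.514 (median 0.388) in Experiment 1 and from 0 to 1 in Experiment 3, without a call. In Experiment 2 it had too few counts to be tested.

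Among the Cyp1 and Cyp3 genes, whose enzymes act on polycyclic hydrocarbons and on drugs and steroids, few were counted. Cyp1b1 (ENSMUSG00000024087, chr17:79701537-79715061) had an AI from 0.546 to 0.710 (median 0.615) in Experiment 1 and from 0.481 to 0.671 (median 0.618) in Experiment 2, both called towards 129S1, and from 0.377 to 0.680 (median 0.489) in Experiment 3, which was not. Cyp1a1 had an AI from 0.289 to 0.526, 0.258 to 0.548 and 0.240 to 0.725 and was not called. Cyp3a13 had a pooled AI of 0.174 on 86 counts and 0.192 on 120 counts, called towards Cast/Ei in Experiment 2 only (Bonferroni-adjusted p = 0.0489 in the QCC-corrected proportional test). Cyp3a25 had 0 maternal counts of 64 in Experiment 1, which allows a share of up to 4.69% by counting error (QCC-corrected 95% interval of AI up to 0.170). It was not called there. In Experiments 2 and 3 it had 0 of 40 and 0 of 27, too few to be tested. Cyp20a1, an orphan P450, had a pooled AI of 0.599, 0.638 and 0.671 and was called in Experiment 2 only, and Cyp2s1 had 0.659, 0.719 and 0.652 and was called in Experiment 1 only.
Some calls were lost when 1 library was left out, with the AI on the same side of 0.5. In Experiment 3, this was so for Cyp2e1 without replicate 1, 2, 4 or 6 (AI 0.429 to 0.432), Cyp27a1 without replicate 2, 5 or 6 (0.589 to 0.607) and Cyp4f17 without replicate 2 or 3 (0.129 to 0.156). In Experiment 1, it was so for Cyp2s1 without any replicate but 3 (0.634 to 0.668), Cyp39a1 without replicate 3 (0.683) and Cyp4a12b without replicate 2, 3, 4 or 6 (0.155 to 0.190). In Experiment 2, it was so for Cyp20a1 without replicate 5 or 6 (0.622 to 0.630), Cyp3a13 without any replicate but 1 (0.172 to 0.223) and Cyp4a12b without replicate 1, 3, 5 or 6 (0.259 to 0.3).

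Experiments 1 and 2 differ in kit and in input, which cannot be told apart, and Experiments 2 and 3 share a kit and differ in input. Each experiment was also a set of libraries prepared in parallel, so preparation set cannot be told apart from kit or input. The total allelic count of P450 genes was compared between experiments with edgeR's quasi-likelihood test with TMM scaling. Benjamini-Hochberg adjustment was made over all genes that averaged at least 10 counts a library. In Experiment 2 against Experiment 1, 18 of 42 P450 genes were higher and 12 lower, where 38.1% of all 11995 genes were higher and 39.4% lower, a share of calls near that of all genes (77.5%). The split depends on the scaling. With total allelic counts in place of TMM, the median log2 fold change of all genes moved by -0.36, 9 P450 genes were higher and 22 lower, and 28.2% and 52.7% of all genes. Changes are therefore given relative to TMM, under which the median log2 fold change was 0.08 for P450 genes and -0.04 for all genes. Of the called P450 genes, 9 differed at least 2-fold, where 37.7% of all genes did. The kidney tubule marker list also differed, with 19483 to 21109 CPM in Experiment 1 and 11879 to 12183 CPM in Experiment 2. The liver and macrophage lists went the other way, from 57.6 to 93.7 CPM in Experiment 1 and 99.2 to 125.7 CPM in Experiment 2 for liver, and from 40.6 to 56.9 and 84.8 to 104.4 CPM for macrophages. The part of these cell types in the totals was not tested.

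The genes that carry most P450 counts went in different directions between the kits. Cyp2d12 lay from 501 to 558 CPM (median 523) in Experiment 1 and from 990 to 1048 CPM (median 1006) in Experiment 2. Its log2 fold change was 1.304 ± 0.03 (SE), with an edgeR adjusted p of 2.10e-23. Cyp4a10 lay from 483 to 547 CPM (median 507) and from 823 to 884 CPM (median 834), a log2 fold change of 1.09 ± 0.03 with an edgeR adjusted p of 5.15e-21. For both, all libraries of Experiment 2 were above all of Experiment 1.
Cyp4a14 lay from 418 to 465 CPM (median 439) and from 229 to 254 CPM (median 243), a log2 fold change of -0.52 ± 0.04 with an edgeR adjusted p of 2.97e-12. Cyp2d26 was level under TMM, with a log2 fold change of 0.00 ± 0.03 and an edgeR adjusted p of 0.952. The neighbours Cyp4a10 and Cyp4a14, which are biased towards different strains, thus also moved apart between the kits.
The other genes with at least a 2-fold difference were Cyp2c70 (log2 fold change 1.29 ± 0.22), Cyp2f2 (1.22 ± 0.38) and Cyp4a12a (1.22 ± 0.34), which were higher in Experiment 2, and Cyp2j13 (-1.89 ± 0.50), Cyp2s1 (-1.57 ± 0.15), Cyp46a1 (-1.41 ± 0.41) and Cyp4f17 (-1.03 ± 0.14), which were lower. Of these, only Cyp2s1 and Cyp4f17 had ranges in CPM that did not overlap. The others had overlapping ranges on low mean levels of 0.574 to 9.24 CPM. The lowest library of Cyp2j13 and of Cyp46a1 in Experiment 2 was at 0. Among smaller changes, Cyp4f13 rose by a log2 fold change of 0.57, Cyp2c23 by 0.75, Cyp2d9 by 0.82 and Cyp1a1 by 0.70. Cyp3a13 (0.83), Cyp27b1 (0.42), Cyp2j6 (0.43) and Cyp39a1 (0.39) were called higher under TMM but not with total counts as scale, where they had 0.47, 0.06, 0.07 and 0.03, and their ranges in CPM overlapped. Cyp24a1 (-0.32), Cyp2a4 (-0.30), Cyp2d22 (-0.24), Cyp2a5 (-0.20), Cyp1b1 (-0.66), Cyp2u1 (-0.63) and Cyp4f15 (-0.997) were lower. Cyp4a31 (0.24), Cyp2j5 (0.21), Cyp20a1 (0.29), Cyp2j11 (0.29) and Cyp4a32 (0.33) were called higher under TMM, and turned to -0.13, -0.150, -0.08, -0.07 and -0.03 with total counts as scale. Calls rested on single libraries for 4 genes. Cyp20a1 lost its call without replicate 1, 4 or 6 of Experiment 1 or any of Experiment 2 but 4 (log2 fold change 0.21 to 0.29), and Cyp2u1 without any replicate of Experiment 1 but 1 and 4 or of Experiment 2 but 1 (-0.65 to -0.51). Cyp4f15 lost it without replicate 2 or 4 of Experiment 1 or 1, 3 or 5 of Experiment 2 (-0.92 to -0.72), and Cyp39a1 without replicate 4 of Experiment 2 (0.27).

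**Figure D3:**
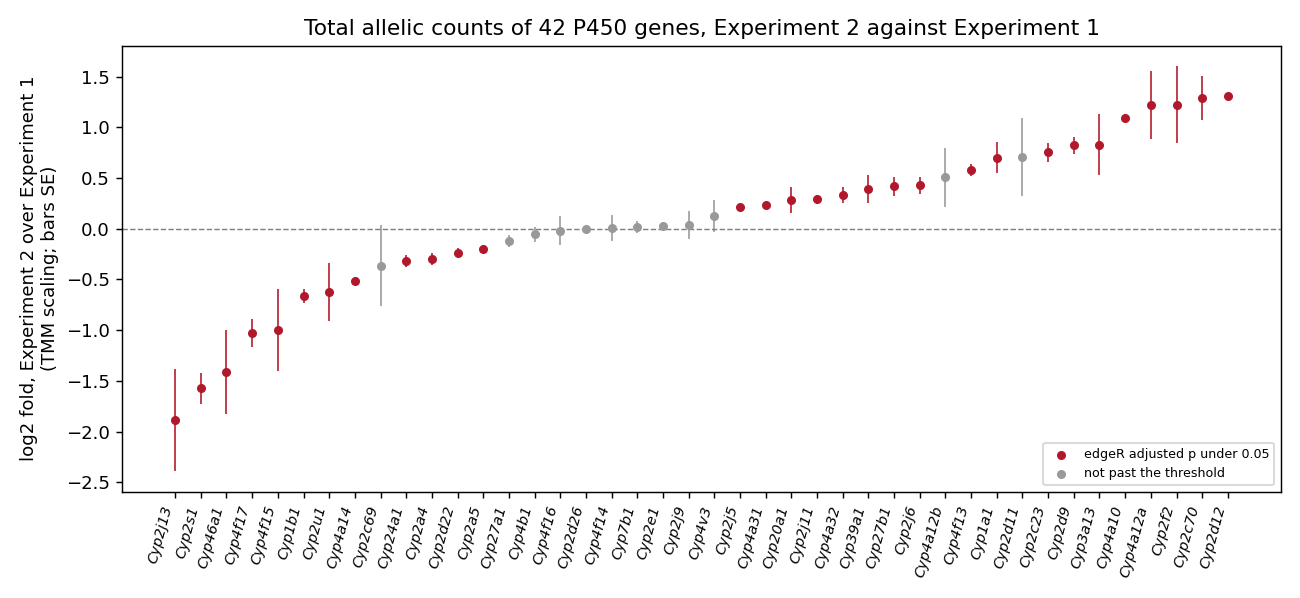
Log2 fold change of the total allelic count from Experiment 1 to Experiment 2 for the 42 P450 genes tested, with TMM scaling, bars of 1 SE, and genes past the edgeR threshold in red. Cyp2d12 and Cyp4a10 stand at the right at 1.304 and 1.09, and Cyp2j13 at the left at -1.89. With total counts as scale, Cyp4a31, Cyp2j5, Cyp20a1, Cyp2j11 and Cyp4a32 turn to values below 0.

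In Experiment 3 against Experiment 2, 7 of 41 P450 genes were higher and 4 lower, where 8.8% of all 11722 genes were higher and 7.02% lower. The clearest was Cyp4b1, from 34.1 to 39.1 CPM (median 37.8) in Experiment 2 and from 68.5 to 80.0 CPM (median 76.3) in Experiment 3, with no overlap. Its log2 fold change was 1.01 ± 0.07, with an edgeR adjusted p of 8.53e-09. Its pooled AI was 0.729 and 0.738. Small increases were called for Cyp2d12 (log2 fold change 0.18), Cyp4a31 (0.20), Cyp4a10 (0.11), Cyp2d26 (0.15) and Cyp7b1 (0.27). Cyp4a14 (-0.26), Cyp2e1 (-0.23) and Cyp2j5 (-0.14) were lower. Cyp2j13 (2.52 ± 0.77) and Cyp3a13 (-1.45 ± 0.46) were called on mean levels of 0.574 to 3.38 CPM. Cyp2j13 lost its call without any replicate of Experiment 2 but 3 or without replicate 3 of Experiment 3 (log2 fold change 2.26 to 2.62), and Cyp3a13 without any replicate of Experiment 2 or replicate 3, 5 or 6 of Experiment 3 (-1.52 to -1.36). With Cyp4b1 they are the 3 genes that differed at least 2-fold, as 1.06% of all genes did.

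For AI itself, the experiments were compared with an edgeR model in which each library had its own level and the allele effect could vary by experiment, over genes with at least 10 counts in every library. The comparisons share libraries. In Experiment 1 against Experiment 2, 6 of 34 P450 genes differed, 3 with a higher maternal share in Experiment 2 and 3 with a lower one, where 10.6% of all 10127 genes were called (5.61% and 4.95%). In Experiment 1 against Experiment 3, 4 of 34 differed, 3 higher and 1 lower in Experiment 3, against 6.24% of 9733 genes (3.32% and 2.92%). In Experiment 2 against Experiment 3, edgeR called 0 of 35, as did DESeq2, limma on the logit of AI and the QCC-corrected test. At an unadjusted p under 0.05, 1 passed, and edgeR called 0.659% of all 10020 genes (0.319% higher and 0.339% lower in Experiment 3). The libraries of Experiments 2 and 3 did not overlap for 0 of the 35 and for 1.16% of all genes.

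Cyp2d9 (ENSMUSG00000068086, chr15:82433437-82456845), known as a male-specific steroid hydroxylase of liver, had the largest difference of those with separate ranges. Its AI lay from 0.398 to 0.538 (median 0.467) in Experiment 1, from 0.607 to 0.712 (median 0.658) in Experiment 2 and from 0.579 to 0.694 (median 0.668) in Experiment 3. The libraries of Experiment 1 did not overlap those of Experiment 2 or 3, which 6.32% and 4.89% of all genes tested also showed. The log2 odds ratio (maternal over paternal counts, second experiment over first) was 1.11 against Experiment 2 and 1.09 against Experiment 3, with edgeR adjusted p of 4.67e-06 and 5.81e-04. Of the windows of Cyp2d9, 12.9% were shared, and Gm46501 had the highest tally of matches.
Cyp2a5 shifted further towards 129S1 in Experiment 2 (mean AI 0.569 ± 0.0111 and 0.635 ± 0.0121, SD of 6 libraries, log2 odds ratio 0.39, edgeR adjusted p = 5.99e-05) and in Experiment 3 (0.621 ± 0.0221, 0.31, edgeR adjusted p = 0.0232). Cyp2j11 moved from below 0.5 to balance, its log2 odds ratio being 0.30 against Experiment 2 and 0.33 against Experiment 3 (edgeR adjusted p = 4.90e-04 and 0.00439), again with no overlap with Experiment 1. The call against Experiment 3 was lost in limma (adjusted p = 0.0666) and in the QCC-corrected test. The calls of Cyp2d9, Cyp2a5 and Cyp2j11 between Experiments 1 and 2 held in edgeR, DESeq2, limma and the QCC-corrected test and without each library in turn.
Cyp4a14 (log2 odds ratio -0.28, edgeR adjusted p = 0.00432), Cyp2d26 (-0.17, edgeR adjusted p = 0.0111) and Cyp4f17 (-1.20, edgeR adjusted p = 0.0338) had a lower maternal share in Experiment 2, with overlapping ranges, and were not called by limma or the QCC-corrected test. Cyp4f17 had an AI from 0.0972 to 0.361 (median 0.295) in Experiment 1, from 0.05 to 0.204 (median 0.145) in Experiment 2 and from 0 to 0.304 (median 0.144) in Experiment 3. Its call was lost without replicate 2, 3, 4, 5 or 6 of Experiment 1 or replicate 2, 3 or 6 of Experiment 2 (edgeR adjusted p from 0.0517 to 0.102).
Cyp24a1 had a lower maternal share in Experiment 3 than in Experiment 1 (log2 odds ratio -2.86, edgeR adjusted p = 0.00376), and 3 of the 6 libraries of Experiment 3 held no maternal count. The QCC-corrected test did not call it. Against Experiment 2 its log2 odds ratio was -2.54 (edgeR adjusted p = 0.112), which passed the threshold without replicate 1 of Experiment 3, the library with 8 of the 11 maternal counts (-4.04, edgeR adjusted p = 0.00615). The call of Cyp2a5 between Experiments 1 and 3 was lost without replicate 3 or 5 of Experiment 1, without replicate 5 of Experiment 3 (edgeR adjusted p from 0.0562 to 0.0611) and in limma and the QCC-corrected test.

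**Figure D4:**
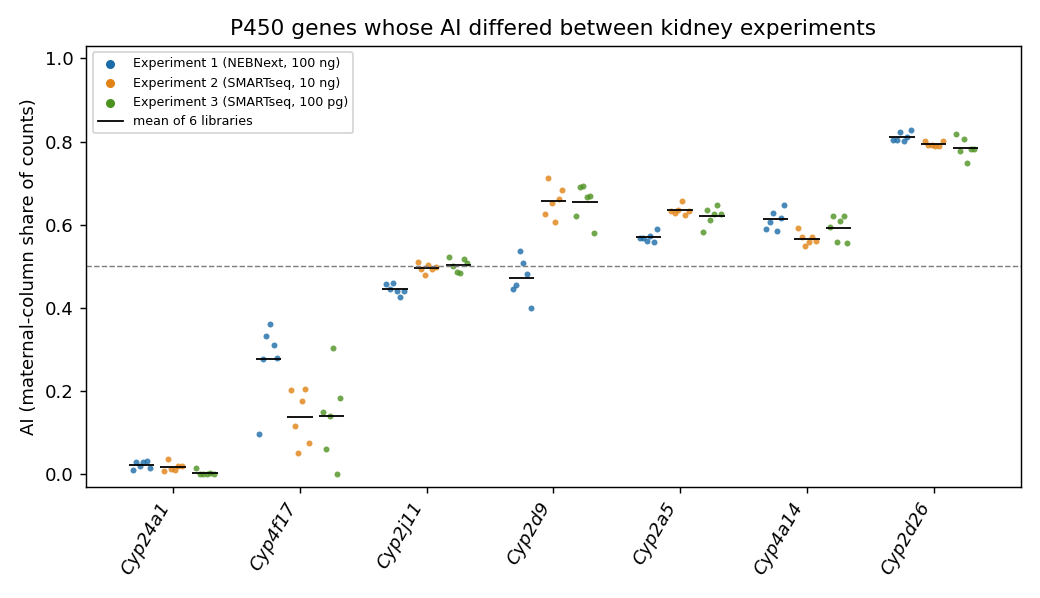
AI of the 7 P450 genes called as different between Experiment 1 and Experiment 2 or 3, with a point per library and bars at the mean of 6 libraries. Cyp2d9 rises from 0.471 to 0.657 and 0.654 in the means, Cyp2j11 moves from 0.445 to values near the dashed line at 0.5, and the maternal share of Cyp24a1 is near 0 throughout.

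P450 expression in the Abl clones was sparse and centred on the Cyp4f genes. Of the 98 members, 76 had 0 counts in Abl.1 and 79 in Abl.2, and 12 and 9 passed 50 pooled counts. The Cyp4f genes held 73.9% of the P450 counts of Abl.1 and 84.2% of those of Abl.2, and the Cyp4a genes, abundant in kidney, had 0 counts. In Abl.1, 9 of 12 genes had an AI other than 0.5 (3 maternal, 6 paternal), where 23.8% of all 10654 genes were called (11.4% and 12.4%), and in Abl.2, 6 of 9 (2 and 4) against 31.8% of 10598 genes (16.1% and 15.7%). The clones were sequenced as paired-end reads on another instrument, so kidney and clone values stand side by side without a test. Scaled to library totals, total counts differed more between the 2 Abl.1 libraries (mean chi-square of a gene 101.3) than between those of Abl.2 (9.95). Differences in level between the clones were not tested.

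Cyp4f18, known as a leukotriene hydroxylase of white blood cells, had 15, 11 and 9 pooled counts in the kidney experiments. In the clones it was at 9.63 and 8.45 CPM in the libraries of Abl.1 and at 158 and 149 CPM in those of Abl.2, mostly of the Cast/Ei allele. Its AI was 0.0216 and 0.0372 in Abl.1 and 0.0736 and 0.0812 in Abl.2, called as different by edgeR (log2 odds ratio 1.43, adjusted p = 0.0204), where 26.4% of all 10068 genes were called. That call was lost without replicate 1 of Abl.1 (edgeR adjusted p = 0.129) and without replicate 1 or 2 of Abl.2 (0.0646 and 0.0915), and in limma and the QCC-corrected test.
Cyp4f16 was the reverse in abundance, with 139 and 267 CPM in Abl.1 and 26.7 and 36.3 CPM in Abl.2. Its AI was 0.671 and 0.672 in Abl.1 and 0.933 and 0.950 in Abl.2 (log2 odds ratio 3.01, edgeR adjusted p = 9.78e-06), and in kidney its pooled AI of 0.509, 0.572 and 0.585 was not called. Cyp4f13 had a pooled AI of 0.260 in Abl.1 and 0.328 in Abl.2, both towards Cast/Ei as in kidney and lower than the kidney values of 0.371, 0.393 and 0.395, and their difference missed the threshold (log2 odds ratio 0.46, edgeR adjusted p = 0.0809) with ranges that did not overlap. It passed without replicate 1 of Abl.1 (edgeR adjusted p = 0.0288) and with both sequencing runs of Abl.2 summed (edgeR adjusted p = 0.0431).
Cyp39a1 had an AI of 0.179 and 0.184 in Abl.1, on the other side of 0.5 from kidney, and of 0.714 and 0.433 in Abl.2. The clones differed (log2 odds ratio 2.59, edgeR adjusted p = 0.0149), and the call was lost without replicate 1 of Abl.2 (edgeR adjusted p = 0.0659) and in limma. The 3 called genes, of 7 tested, all had the higher maternal share in Abl.2, where 14.2% of all genes did, and their libraries did not overlap, as was so for 6 of the 7 and for 58.8% of all genes.

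Several genes expressed from both alleles in kidney had all or nearly all counts from 1 allele in a clone. An AI at least 0.3 away from 0.5 was also found for 16.1% of all genes tested in Abl.1 and 21.1% in Abl.2. Among P450 genes it was found for 8 of 12 and 5 of 9. Their median was 409.5 and 471 pooled counts, against 1083.5 and 1491 for all genes, and the part of depth was not tested. Cyp7b1 had 0 maternal counts of 1123 in Abl.1, which allows a share of up to 0.267% by counting error alone and an AI of up to 0.0213 by the QCC-corrected 95% interval, and no count in Abl.2, while its pooled AI in kidney lay between 0.476 and 0.516. Cyp2j9 had 322 of 322 counts in the maternal column of Abl.1, which allows a paternal share of up to 0.932% by counting error and an AI down to 0.929 by the QCC-corrected interval, and Cyp2j6 350 of 352, and neither had a count in Abl.2. Cyp4v3 had 0 maternal counts of 243 in Abl.1, allowing up to 1.23% by counting error and an AI of up to 0.0915 by the interval. In kidney the pooled AI was 0.579, 0.644 and 0.649 for Cyp2j9 and 0.372, 0.425 and 0.527 for Cyp4v3.
Cyp2d22, with an AI of at least 0.690 in every kidney library, was on the Cast/Ei side in both clones, with 0.224 and 0.0219 in the libraries of Abl.1 and 0 of 300 counts in Abl.2, which allows up to 1% by counting error and an AI of up to 0.0564 by the interval. Its difference between the clones was not called by edgeR (adjusted p = 0.117) but was by DESeq2 (adjusted p = 0.0119), and its Abl.1 libraries differed widely. Cyp20a1 had a pooled AI of 0.603 in Abl.1 and 0.668 in Abl.2, on the same side as in kidney. Cyp27b1 had 69 and 138 counts in the clones, with an AI from 0 to 0.744 in Abl.1 and from 0 to 0.250 in Abl.2, and was not called. Cyp2c37 and Cyp2c54, at 0 counts in kidney and in Abl.1, were counted in Abl.2, unevenly between its libraries. Cyp2c37 had 280 and 152 counts (13.1 and 6.86 CPM) and a pooled AI of 0.185, called towards Cast/Ei, and Cyp2c54 had 60 and 357 counts (2.81 and 16.1 CPM) and 0.355, not called. With 1 library left, calls against 0.5 were lost for Cyp39a1 (either library of Abl.1), Cyp20a1 and Cyp2c37 (either library of Abl.2), Cyp2j9 (without replicate 1 of Abl.1), and Cyp2d22 and Cyp4v3 (without replicate 2 of Abl.1), while each AI stayed on its side, from 0.179 to 0.184 for Cyp39a1, 0.650 to 0.687 for Cyp20a1, 0.145 to 0.207 for Cyp2c37, and at 1, 0.224 and 0 for the other 3.

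**Figure D5:**
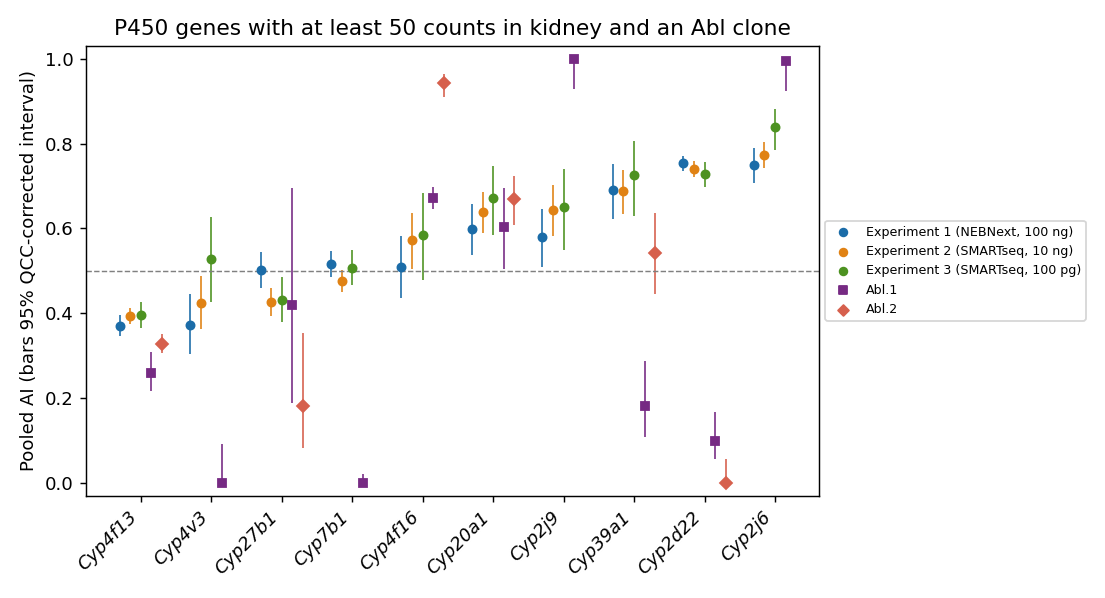
Pooled AI of the 10 P450 genes with at least 50 counts in all kidney experiments and in a clone, with bars of the 95% QCC-corrected interval and a dashed line at 0.5; clone values are shown only where the gene has 50 counts. Cyp2d22 lies above 0.7 in the kidney experiments and below 0.1 in both clones, and Cyp7b1 near 0.5 in kidney and at 0 in Abl.1.

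A list of 22 further genes held electron donors, heme enzymes, epoxide hydrolases, receptors and transcription factors. It also held Cyp51, Tbxas1 and Ptgis, P450 enzymes whose symbols lie outside the naming rule. Of the 22, 17 passed 50 counts in each experiment. In Experiment 1, 5 were called towards 129S1 and 0 towards Cast/Ei, in Experiment 2, 7 and 2, and in Experiment 3, 7 and 3, where the shares of all genes called were 8.7% and 7.88%, 12.1% and 10.6%, and 6.24% and 5.78%. Por, the reductase that supplies electrons to microsomal P450 enzymes, had a pooled AI of 0.594, 0.626 and 0.592, called towards 129S1 each time. Cyp51, the lanosterol demethylase, had 0.857, 0.873 and 0.896 in kidney, called each time, and 0.448 and 0.482 without a call in Abl.1 and Abl.2. Tbxas1 had 0.890, 0.923 and 0.941 in kidney, called each time. Both are P450 enzymes themselves and are among the calls towards 129S1 counted above. The vitamin D receptor gene Vdr had 0.506, 0.563 and 0.592 in kidney, called in Experiments 2 and 3, and 0.133 and 0.851 in Abl.1 and Abl.2, called in opposite directions. Hnf4a, a transcription factor of tubule and liver cells, was not called in any experiment, with 0.492, 0.514 and 0.532. In bulk RNA, fewer cells of a type and less RNA per cell cannot be told apart.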

How the data were processed

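Gene-level maternal and paternal allelic counts were used as deposited. Per the study's methods, the authors aligned reads with STAR 2.5.4a to both parental pseudogenomes on GRCm38, kept uniquely aligned reads, sampled libraries to equal read numbers, and summed counts over the SNPs of each gene's merged exons, so a read that covers more than 1 SNP is counted more than once. The kidney reads are single-end and the Abl reads paired-end. Deposited AI estimates and their intervals were not used. Of the columns of per-library counts, 0 were unmapped. The second sequencing run of the Abl.2 libraries entered only an alternative.

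AI, its 95% interval (Wilson, on counts divided by the square of QCC, which covers the spread between libraries of 1 RNA) and the two-sided proportional test against 0.5 were computed per experiment on pooled counts of genes with at least 50, with Bonferroni correction at 0.05. QCC was re-estimated from library pairs (1.85 ± 0.178, 1.47 ± 0.0158 and 2.59 ± 0.0499 in Experiments 1, 2 and 3, mean ± SD of 15 pairs, and 2.53 and 2.16 in Abl.1 and Abl.2, 1 pair each). Differences in AI (genes with 10 or more counts in each library) and in total count (TMM, a mean of at least 10) were tested with edgeR 4.0.16 quasi-likelihood fits in R 4.3.3 and Benjamini-Hochberg adjustment at 0.05. DESeq2 1.42.0, limma 3.58.1, other filters, other scaling, a replicate block and leaving out each library were alternatives. The QCC-corrected test against 0.5 and the edgeR tests of AI differences and of total counts were tried on simulated data. The alternatives were not. PCR reads are not independent molecules, so the limit of 3 counts set for a count of 0 covers counting error only.

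Values per library are given for the 3 most counted genes of a family, for genes with an AI under 0.2 or over 0.8 in all experiments, for vitamin D and steroid genes, and for genes called in a comparison. The P450 genes and all lists were chosen with earlier results of these data known. Shared windows and coding differences came from GENCODE M21 on GRCm38, which gave the coordinates of the count tables for 92 of 98 genes.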

Additional observations from a re-analysis of the deposited data

Results flagged for a closer look

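In 248 sets of 6 kidney libraries, AI or CPM of a P450 gene in 1 experiment, 20 had a library farther from the others than Dixon's 95% limit of 0.625, where chance gives about 1 in 20. In Experiment 1, these were the AI of Cyp1a1 in replicate 6 (0.289, nearest 0.446), of Cyp4a31 in replicate 3 (0.406, nearest 0.439) and of Cyp4f17 in replicate 1 (0.0972, nearest 0.277). In the same experiment, the level of Cyp2a5 in replicate 1 was 313 CPM (nearest 280), of Cyp2c23 in replicate 4 39.4 CPM (nearest 32.2) and of Cyp4f14 in replicate 5 18.1 CPM (nearest 30.1).

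In Experiment 2, the AI of Cyp1b1 was 0.481 in replicate 1 (nearest 0.607) and that of Cyp2a4 0.993 in replicate 2 (nearest 0.998). Replicate 2 also held the lowest levels of Cyp2a4 (70.9 CPM, nearest 78.5) and Cyp2f2 (0.626 CPM, nearest 2.19) and the highest of Cyp2j9 (18 CPM, nearest 13.9), and replicate 4 the highest of Cyp39a1 (24.6 CPM, nearest 17.6). In Experiment 3, the AI of Cyp24a1 was 0.0155 in replicate 1 (nearest 0.00296), of Cyp2a4 0.995 in replicate 6 (nearest 0.998), of Cyp4a10 0.343 in replicate 3 (nearest 0.326) and of Cyp4f40 0.0714 in replicate 5 (nearest 0). The level of Cyp2e1 was 196 CPM in replicate 4 (nearest 212). On few counts, the AI of Cyp2f2 was 0.5 in replicate 2 (nearest 1), of Cyp2s1 0.287 in replicate 3 (nearest 0.712) and of Cyp4f15 1 in replicate 4 (nearest 0).

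The AI of 13 gene and comparison pairs differed in the edgeR interaction test, as log2 odds ratios of the second over the first group. Between Experiments 1 and 2 these were Cyp2d9 (1.11), Cyp2a5 (0.39), Cyp2j11 (0.30), Cyp4a14 (-0.28), Cyp2d26 (-0.17) and Cyp4f17 (-1.20). Between Experiments 1 and 3 they were Cyp2d9 (1.09), Cyp2j11 (0.33), Cyp2a5 (0.31) and Cyp24a1 (-2.86). Between Abl.1 and Abl.2 they were Cyp4f16 (3.01), Cyp39a1 (2.59) and Cyp4f18 (1.43).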

How the results depend on the processing

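The number of P450 genes with an AI other than 0.5 stayed within 1.5 times the reported one under each alternative except in Experiment 3, where 31 in place of 20 were called without the QCC correction. Leaving out 1 library gave 23 to 24 in Experiment 1, 23 to 27 in Experiment 2, 17 to 19 in Experiment 3, 6 to 7 in Abl.1 and 4 in Abl.2. Of genes whose AI differed between Experiments 1 and 2, limma and the QCC-corrected test each called 3 in place of 6, and between Experiments 1 and 3 they called 2 and 1 in place of 4. Between the clones limma called 1 in place of 3. Leaving out 1 library gave 5 to 7 genes between Experiments 1 and 2, 3 to 5 between 1 and 3, 0 to 1 between 2 and 3 (main count 0) and 1 to 4 between the clones. With 1 library left in a clone, that library is assumed to vary like those of the other. With total counts in place of TMM, the log2 fold change from Experiment 1 to 2 turned negative for Cyp4a31 (-0.13), Cyp20a1 (-0.0763), Cyp2j5 (-0.150), Cyp4a32 (-0.0310) and Cyp2j11 (-0.0706), and Cyp3a13, Cyp27b1, Cyp2j6 and Cyp39a1 were no longer called.

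Same-numbered libraries of different experiments showed little tendency to deviate together (correlation from -0.0229 to 0.0386, and -0.0220 between the clones). In total counts of Experiments 2 and 3, 4 of 6 libraries were closest to that of their own number. In the other comparisons of experiments 0 to 3 were. The main tests used no pairing. With a replicate block, 5, 3, 0 and 4 P450 genes differed in AI (Experiments 1 and 2, 1 and 3, 2 and 3, and the clones), and 30 and 11 in total count (Experiments 1 and 2, and 2 and 3). For AI, Cyp4f17 and Cyp2a5 were lost and Cyp2d22 was gained between the clones. For totals, Cyp2u1 was lost and Cyp27a1 gained between Experiments 1 and 2, and Cyp2j13 lost and Cyp2j11 gained between 2 and 3. Depth limits the 32 genes with fewer than 50 pooled counts, for which no test of AI was made.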
